A study of Mus musculus with 48 samples.

Results

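Striatal RNA was compared between 8 mice that carried the Q140 allele and lacked both Msh3 alleles and 8 wild-type mice, to describe which genes still differed from wild type when Msh3 was absent. These 16 mice were chosen by their genotype labels alone, out of 48 mice of 6 genotypes with 8 mice each. The other genotypes were Q140 alone, Msh3-/- alone, Msh3+/- alone and Q140 with Msh3+/-. All 6 groups held 4 female and 4 male mice on the C57BL/6 background, and all tissue was corpus striatum. The sample labels give an age of 12 months, whereas the text on RNA extraction gives 6 months, and the files do not settle which applies. Each library is a separate replicate by its label, and the labels do not name litters. The p-values of single genes set each difference against the spread between libraries, with litters not taken into account. That spread was estimated over the libraries of all 48 mice.

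Q140 is a knock-in of an expanded CAG repeat into the mouse huntingtin gene (Htt), present here in 1 copy, and it models Huntington's disease. The repeat is unstable in brain tissue and tends to lengthen with age in spiny projection neurons, the inhibitory output neurons of the striatum. Msh3 encodes a mismatch repair protein that recognises small DNA loops, and loss of Msh3 is known to limit this lengthening in mice. Spiny projection neurons of the direct pathway carry the dopamine receptor Drd1 and make substance P and dynorphin, and those of the indirect pathway carry Drd2 and make enkephalin. Lower RNA of the genes that define these neurons is a known feature of Huntington's disease models.

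The library totals ran from 41.6 M to 60.9 M counts in wild type and from 43.2 M to 55.6 M in Q140 x Msh3-/-. None of 6 technical measures differed between both groups (2-sided exact permutation tests, lowest adjusted p = 0.486). All 28 spiny projection neuron genes, 12 oligodendrocyte genes, 12 astrocyte genes and 12 microglia genes looked for had counts in every one of the 48 libraries. Summed levels of 9 markers of cortical excitatory neurons ran from 47.5 to 64.1 CPM (counts scaled to a common library total, with TMM factors) in wild type and from 51.0 to 132 in Q140 x Msh3-/-, with female replicate 2 at the top. Their part in the results was not tested. None of the 9 passed in edgeR, beside 6.28% of all genes tested. Of the 9, 1 had an unadjusted p below 0.05 and DESeq2 called 1, and their median log2 fold change was 0.71. Female replicate 3, male replicate 3 and male replicate 4 of Q140 x Msh3-/- also exceeded wild type in the summed level, at 75.95, 75.13 and 64.86 CPM. The remaining Q140 x Msh3-/- mice lay within the wild-type range of this sum. Without female replicate 2 alone, 1227 genes passed the test in place of 1239.

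Msh3 RNA itself was higher, not lower, in the mice labelled Msh3-/-. Msh3 (chromosome 13, 92211872 to 92355003, minus strand, GRCm38) ran from 26.4 to 30.9 CPM in wild type with a median of 29.3, and from 103 to 126 in Q140 x Msh3-/- with a median of 116. The groups did not overlap. Mice with 1 Msh3 allele lay between them, at 72.0 to 76.5 CPM in Msh3+/- and 68.4 to 81.5 in Q140 x Msh3+/-, and Msh3-/- mice without Q140 stood at 118 to 126. The log2 fold change of Msh3 in Q140 x Msh3-/- against wild type was 2.0 ± 0.0353 (SE, n = 8 per group, edgeR adjusted p = 3.73e-44). The sources used here do not say which exons the Msh3 allele lacks, so the gene-level count separates the genotypes without showing loss of the protein, and the directions below rest on the labels. Htt (chromosome 5, 34761740 to 34912534, plus strand) ran from 217 to 237 CPM in wild type and from 205 to 243 in Q140 x Msh3-/-, and the ranges overlapped (adjusted p = 0.99).

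Of 19714 genes tested, 1239 (6.28%) differed between Q140 x Msh3-/- and wild type at an adjusted p below 0.05 in edgeR's quasi-likelihood test. Of these, 574 (2.91% of the genes tested) were higher and 665 (3.37%) were lower. The balance depended on the scaling: with library totals in place of TMM factors, 1364 genes were higher and 486 were lower. Most of the differences were small. The median size was 0.21 on the log2 scale for the genes that rose and 0.23 for those that fell, and 62.7% of the former and 58.8% of the latter changed by less than 1.2-fold. Against a minimum fold of 1.2, 57 genes passed. In 218 genes (1.11% of those tested) the 8 mice of one genotype did not overlap the 8 of the other, with 100 genes above wild type and 118 below. For scale, Q140 alone differed from wild type in 33.0% of the same genes and Q140 x Msh3-/- differed from Q140 in 16.3%. Msh3-/- alone differed from wild type in 9 genes (0.0457%), all of them on chromosome 13. These comparisons share mice with the one described here, so their values stand only side by side.

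Genes that define spiny projection neurons were lower in Q140 x Msh3-/-. Of 28 such genes tested, 22 (78.6%) fell and none rose, beside 3.37% and 2.91% of all genes tested. The median log2 fold change of the 28 was -0.22 against 0.002 over all genes tested. The count of lower genes ran from 18 to 23 over the alternatives without a minimum fold. In Q140 alone, 27 of the 28 were lower than wild type, with a median of -0.54, beside 33.0% of all genes called in either direction. The summed level of the 28 genes ran from 24730 to 28330 CPM in wild type, from 19040 to 24140 in Q140 x Msh3-/- and from 15680 to 17350 in Q140, and the 3 ranges did not overlap. In bulk tissue, fewer cells of a type and less RNA per cell cannot be told apart.

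Pde10a, a phosphodiesterase that breaks down cAMP and cGMP in these neurons, ran from 2554 to 2872 CPM in wild type (median 2751) and from 1658 to 2269 in Q140 x Msh3-/- (median 1990). All 8 Q140 x Msh3-/- mice lay below every wild-type mouse and above every Q140 mouse, which reached 1477 at most. The log2 fold change against wild type was -0.47 ± 0.0454 (adjusted p = 1.06e-10), beside -0.98 for Q140 alone. Ppp1r1b encodes DARPP-32, a phosphatase inhibitor switched by dopamine signalling. It ran from 2095 to 2502 CPM in wild type (median 2287), from 1634 to 2081 in Q140 x Msh3-/- (median 1826) and from 1212 to 1439 in Q140, again with no overlap. Its log2 fold change was -0.33 ± 0.0403 (adjusted p = 5.99e-08).

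Ryr1, a calcium release channel of the endoplasmic reticulum, ran from 117 to 156 CPM in wild type (median 131), from 61.2 to 96.9 in Q140 x Msh3-/- (median 76.0) and from 24.7 to 49.4 in Q140 (median 33.9). The 3 groups were separate. Its log2 fold change was -0.82 ± 0.123 in Q140 x Msh3-/- (adjusted p = 1.07e-05) and -1.93 in Q140, and the difference between both Q140 groups was 1.11 ± 0.127 (adjusted p = 9.98e-09). Cnr1, the CB1 cannabinoid receptor, had a median of 482 CPM in wild type and 332 in Q140 x Msh3-/-, with no overlap (log2 fold change -0.63). Scn4b, a sodium channel beta subunit, had medians of 2084 and 1453 CPM, also with no overlap (log2 fold change -0.52). Arpp21 and Rgs9, a cAMP-regulated phosphoprotein and a regulator of G protein signalling, both had a log2 fold change of -0.34. At the low end, Meis2 and Foxp1, both transcription factors of these neurons, fell by 0.15 and 0.18 on the log2 scale. The 6 genes that did not pass were Bcl11b, Rarb, Gng7, Gnal, Dclk3 and Rgs2. Gng7 and Gnal, the G protein subunits that couple dopamine and adenosine receptors to adenylyl cyclase, had medians of 1402 and 1158 CPM in wild type and 1380 and 1124 in Q140 x Msh3-/-, with overlapping ranges. Bcl11b, a transcription factor needed for these neurons to mature, had medians of 540 and 497 CPM, also with overlapping ranges.

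**Figure D1:**
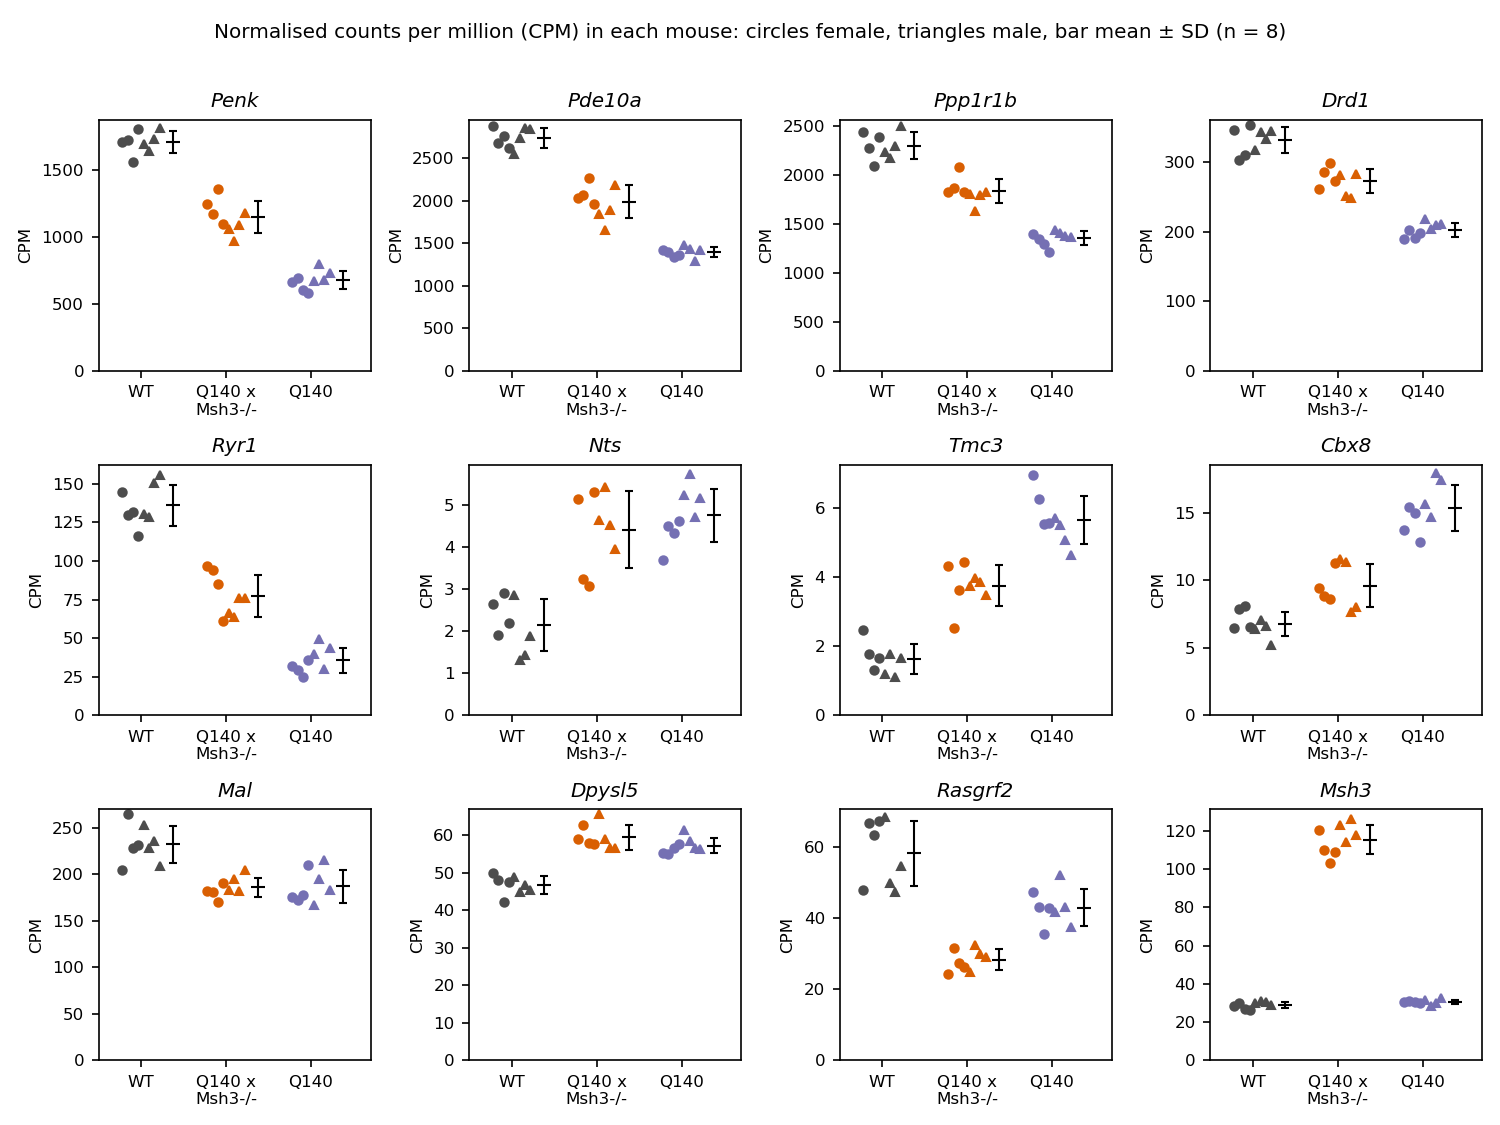
Levels of 12 genes in each mouse, in CPM on axes that start at 0, for wild type, Q140 x Msh3-/- and Q140; circles are females, triangles are males and the bar gives the mean ± SD (n = 8). Penk, Pde10a, Ppp1r1b, Drd1 and Ryr1 show 3 steps from wild type to Q140 x Msh3-/- to Q140, whereas Dpysl5 and Mal lie at similar levels in both Q140 groups and Rasgrf2 is lowest in Q140 x Msh3-/-.

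**Figure D2:**
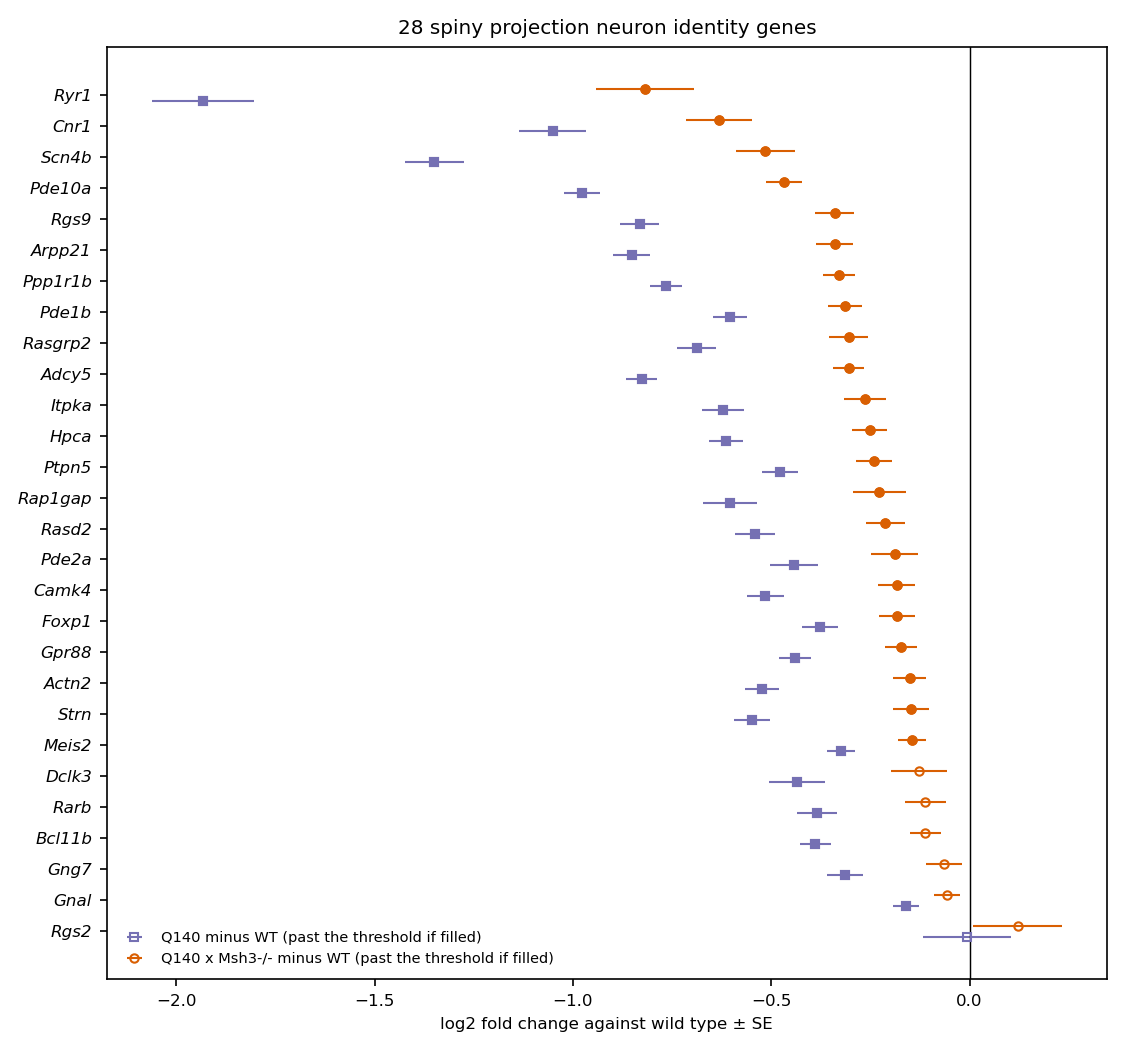
Log2 fold changes (± SE) of the 28 spiny projection neuron genes against wild type, in Q140 x Msh3-/- (circles) and in Q140 (squares); filled symbols passed the test. The circles run from -0.82 for Ryr1 to 0.12 for Rgs2, and 22 of the 28 are filled below 0.

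Indirect-pathway markers fell in 4 of 6 genes tested (median log2 fold change -0.32), beside 3.37% of all genes tested. Penk, the precursor of the enkephalins, ran from 1558 to 1816 CPM in wild type (median 1717), from 973 to 1356 in Q140 x Msh3-/- (median 1137) and from 582 to 801 in Q140 (median 676). The 3 groups did not overlap, and the fitted level was 67.0% of wild type in Q140 x Msh3-/- and 39.7% in Q140. Against wild type, Penk had a log2 fold change of -0.58 ± 0.0532 (adjusted p = 4.61e-11). Drd2, the D2 dopamine receptor, ran from 273 to 309 CPM in wild type (median 301) and from 210 to 278 in Q140 x Msh3-/- (median 245), so that the groups overlapped at their edges (log2 fold change -0.31 ± 0.0425, adjusted p = 8.91e-07). Adora2a, an adenosine receptor, had a log2 fold change of -0.37 ± 0.0642 and the orphan receptor Gpr6 one of -0.33 ± 0.049.

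Direct-pathway markers did not move one way: of 8 tested, 3 fell and 2 rose, with a median of 0.09, beside 6.28% of all genes called. Drd1, the D1 dopamine receptor, ran from 303 to 353 CPM in wild type (median 339), from 248 to 299 in Q140 x Msh3-/- (median 277) and from 189 to 219 in Q140 (median 204). The groups were separate, and the log2 fold change was -0.28 ± 0.0414 (adjusted p = 2.89e-06). The muscarinic receptor Chrm4 (-0.25) and the mitochondrial carrier Sfxn1 (-0.17) also fell. Isl1 and Eya1, both transcriptional regulators, rose by 0.20 and 0.32 and had Q140 values of 0.25 and 0.34. Tac1, the precursor of substance P, ran from 134 to 173 CPM in wild type and from 154 to 196 in Q140 x Msh3-/- and did not pass (adjusted p = 0.116). Pdyn, the precursor of dynorphin, ran from 93.6 to 134 and from 106 to 151 CPM and did not pass either (adjusted p = 0.283).

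The signalling genes that act downstream of these receptors moved mostly one way. In the list of cAMP and DARPP-32 signalling, 14 of 18 genes fell and 1 rose in Q140 alone, beside 33.0% of all genes. In Q140 x Msh3-/-, 12 fell and 1 rose (median -0.22), beside 6.28% of all genes called. The lower genes held the adenylyl cyclase Adcy5, which had medians of 1940 CPM in wild type and 1582 in Q140 x Msh3-/- (log2 fold change -0.30 ± 0.039, adjusted p = 1.53e-07). They also held 4 phosphodiesterases, Pde10a, Pde1b (-0.31), Pde7b (-0.23) and Pde2a (-0.19), and 3 regulators of G protein signalling, Rgs4 (-0.43), Rgs14 (-0.39) and Rgs9. The gene that rose was Prkar1b, a regulatory subunit of protein kinase A (0.14). These signalling lists share genes with the identity list, among them Ppp1r1b, Pde10a, Adcy5 and Ryr1.

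Calcium channel and calmodulin kinase genes fell in 10 of 17 and rose in 1 (median -0.13), beside 6.28% of all genes called. With library totals as the scale, 7 of the 17 fell, and of all 19714 genes tested 486 fell and 1364 rose. Itpr1, the inositol trisphosphate receptor, had medians of 1798 CPM in wild type and 1534 in Q140 x Msh3-/- with overlapping ranges (log2 fold change -0.25 ± 0.0408, adjusted p = 2.11e-05). All 3 ryanodine receptors were lower, and Ryr2 (-0.13) and Ryr3 (-0.18) moved less than Ryr1. The gene that rose was Cacna2d1, an auxiliary calcium channel subunit (0.17). Potassium channel genes fell in 6 of 15 (median -0.11) and in 12 in Q140 alone, beside 6.28% and 33.0% of all genes called. The voltage-gated channel gene Kcnh4 had medians of 85.1 and 61.0 CPM, with overlapping ranges (log2 fold change -0.49 ± 0.0743). Beside 3.37% of all genes, 6 of 20 glutamate and GABA receptor genes fell, and the list's median was -0.05. Grin1, the obligatory NMDA receptor subunit, was one of them, with ranges of 707 to 780 and 656 to 695 CPM that did not overlap. With library totals as the scale, 3 of this list fell and 2 rose, so its split rests on the scaling.

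**Figure D3:**
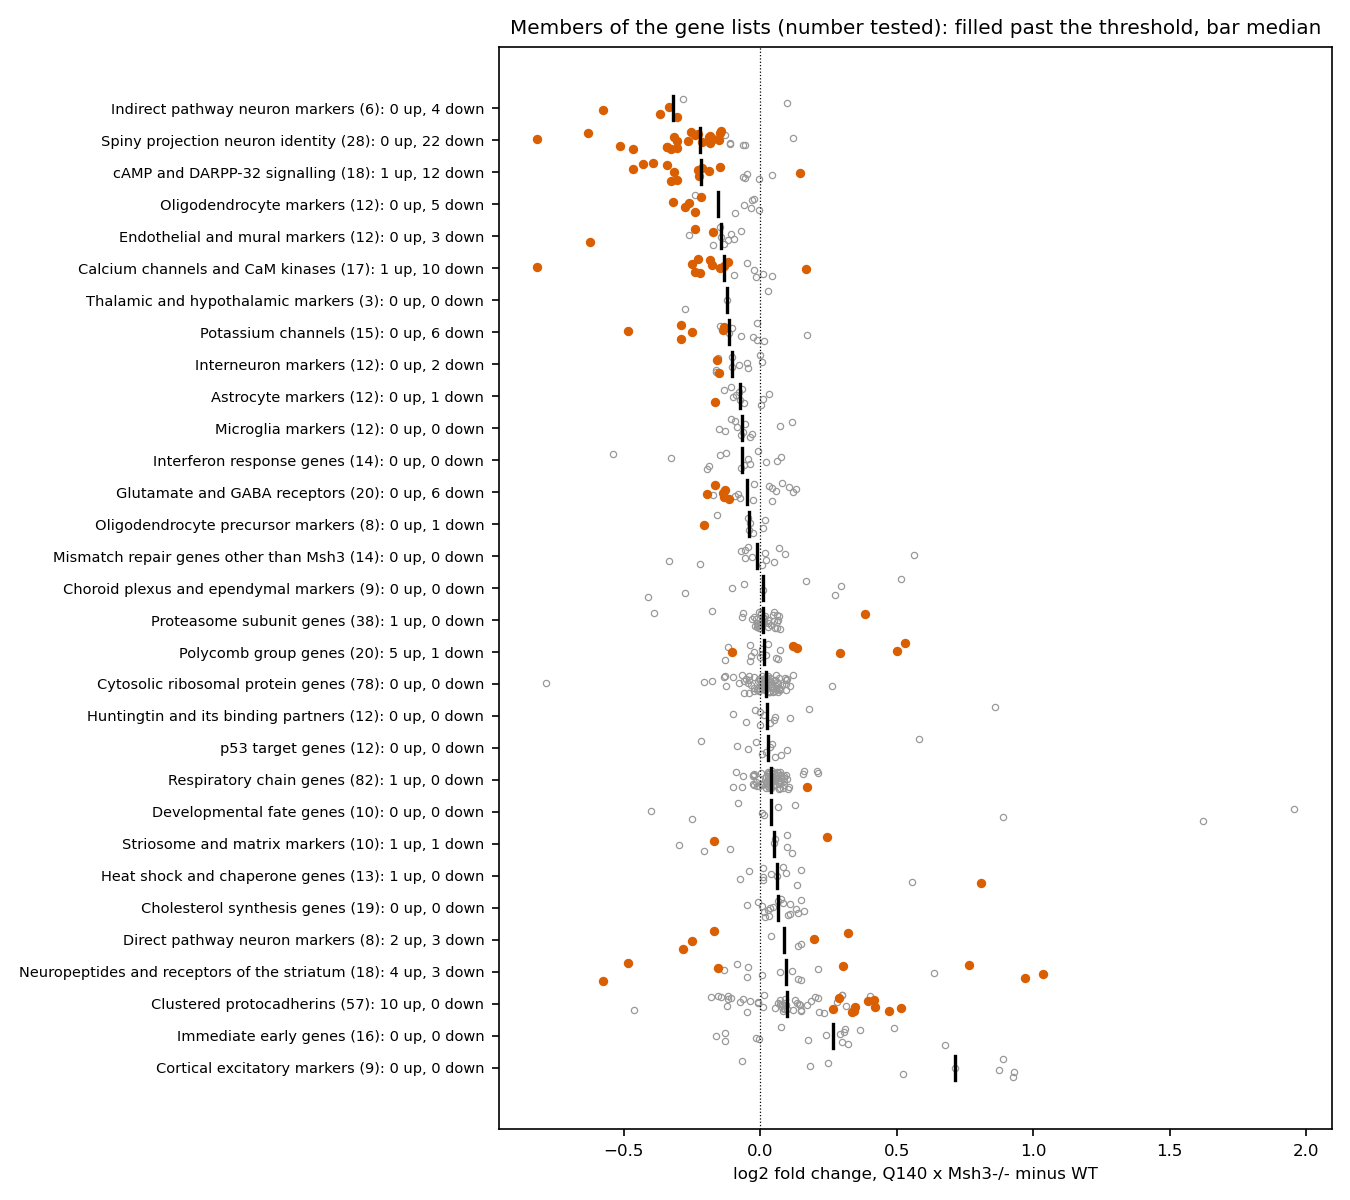
Log2 fold changes in Q140 x Msh3-/- against wild type for the members of each gene list, with the number tested and the counts that rose and fell beside each name; filled points passed the test and the bar is the list's median. The indirect-pathway and spiny projection neuron lists lie furthest below 0 by their medians, at -0.32 and -0.22.

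Among genes whose mean log2 CPM was 1 or more, the 12 with the highest rises were Msh3 and 11 others, which rose by 0.77 to 1.21 on the log2 scale. Tmc3, a member of the transmembrane channel-like family, ran from 1.1 to 2.47 CPM in wild type (median 1.66), from 2.52 to 4.42 in Q140 x Msh3-/- (median 3.79) and from 4.64 to 6.96 in Q140 (median 5.55). All 8 Q140 x Msh3-/- mice were above the wild-type range and below the Q140 range. Tmc3 thus had a log2 fold change of 1.21 ± 0.143 (adjusted p = 2.51e-08), beside 1.80 in Q140.

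Nts, the precursor of neurotensin, ran from 1.32 to 2.92 CPM in wild type (median 2.06), from 3.07 to 5.43 in Q140 x Msh3-/- (median 4.59) and from 3.70 to 5.75 in Q140 (median 4.68). Both Q140 groups lay above wild type and overlapped each other. Against wild type, Nts had a log2 fold change of 1.04 ± 0.166 (adjusted p = 1.93e-05) beside 1.15 in Q140, and the difference between both Q140 groups was -0.11 ± 0.158 (adjusted p = 0.706). Rprm, which encodes the cell-cycle arrest protein reprimo, ran from 3.78 to 5.50 CPM in wild type and from 6.35 to 11.9 in Q140 x Msh3-/- (log2 fold change 1.01 ± 0.115, adjusted p = 1.88e-08). The difference of Rprm between both Q140 groups did not pass (adjusted p = 0.134).

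The remaining rises include genes of cell junctions. Ipcef1, whose protein binds cytohesin exchange factors, ran from 3.82 to 7.34 and from 7.97 to 12.6 CPM (log2 fold change 0.89). Greb1l rose by 0.81 with overlapping ranges. Dsg2 and Dsg1c, desmogleins of cell junctions, had fold changes of 0.95 and 0.98. The Dsg1c call rested on 1 mouse: without Q140 x Msh3-/- male replicate 1 it no longer passed. Both desmogleins also lost their call when the 4 libraries with other name prefixes (2 wild type and 2 Q140) were left out, with highest adjusted p values of 0.0796 for Dsg1c and 0.071 for Dsg2.

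The 12 greatest falls reached from -0.91 to -1.28. Phex, a membrane endopeptidase of phosphate balance, ran from 3.81 to 8.21 CPM in wild type (median 6.55) and from 1.76 to 3.25 in Q140 x Msh3-/- (median 2.42), with a log2 fold change of -1.28 ± 0.216 (adjusted p = 6.93e-05). Cpne9, a copine that binds membranes with calcium, ran from 16.1 to 23.3 CPM in wild type (median 18.7) and from 5.26 to 11.4 in Q140 x Msh3-/- (median 9.03; log2 fold change -1.13 ± 0.12, adjusted p = 6.31e-09). Neither gene's groups overlapped. Gpx6, a glutathione peroxidase, ran from 8.42 to 14.4 CPM in wild type, from 3.47 to 7.27 in Q140 x Msh3-/- and from 0.607 to 1.96 in Q140. Its level was 47.6% of wild type in Q140 x Msh3-/- and 10.3% in Q140, and the difference between both was 2.20 ± 0.212 on the log2 scale (adjusted p = 1.29e-10).

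Plk5, of the polo-like kinase family, ran from 29.3 to 35.6 CPM in wild type, from 12.5 to 19.0 in Q140 x Msh3-/- and from 10.8 to 14.3 in Q140, so the Q140 groups overlapped while both lay below wild type. Its log2 fold change was -0.95 ± 0.0704 (adjusted p = 2.78e-14), beside -1.36 in Q140. The difference of Plk5 between both Q140 groups was 0.41 ± 0.0723 (adjusted p = 3.3e-05). Their overlap rested on Q140 x Msh3-/- female replicate 4 (12.5 CPM, others 16.4 to 19.0). Ddit4l, an inhibitor of mTOR signalling, had medians of 37.0, 18.8 and 6.85 CPM in wild type, Q140 x Msh3-/- and Q140, and the 3 ranges were separate. Sec14l3, a lipid-binding protein, had medians of 16.7, 8.30 and 2.85 CPM, and Slc4a11, a membrane transporter, had medians of 21.5, 10.5 and 4.01 CPM in the same order. In both, Q140 x Msh3-/- lay below the wild-type range and above the Q140 range. Serpinb1b, a protease inhibitor, and Cd59a, which restrains complement, fell by 0.98 and 0.91. Wnt8b, a Wnt ligand, had a log2 fold change of -1.18 ± 0.33 (adjusted p = 0.0205), with overlapping ranges and -3.06 in Q140. The Wnt8b call was lost without Q140 x Msh3-/- female replicate 4 and in 3 other alternatives. Rasgrf2 and Cmya5, also among the 12, lie beside Msh3 and are described with the genes around it.

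Among 18 neuropeptide and receptor genes, 4 rose and 3 fell, beside 6.28% of all genes called. Besides Nts and Penk, the somatostatin receptor gene Sstr2 ran from 2.99 to 4.70 CPM in wild type (median 3.82) and from 4.24 to 11.6 in Q140 x Msh3-/- (median 6.05), with overlapping ranges (log2 fold change 0.77 ± 0.139, adjusted p = 0.000149). Sstr2 was higher in Q140 x Msh3-/- than in Q140 by 0.47 (adjusted p = 0.0123), and its value in Q140 alone was 0.30. Cartpt, the precursor of the CART peptide, ran from 0.750 to 1.35 CPM in wild type and from 0.934 to 2.84 in Q140 x Msh3-/-, with 0.744 to 2.37 in Msh3-/- alone. Cartpt had a log2 fold change of 0.97 ± 0.222 (adjusted p = 0.00279), and its Q140 value was -0.09. Cartpt is also a gene of the cortex, whose markers ran higher in some Q140 x Msh3-/- libraries as given above, and the part of that in the result was not tested. The neuropeptide Y receptor Npy1r rose by 0.30, the angiotensin peptide receptor Mas1 fell by 0.48, and the substance P receptor Tacr1 fell by 0.16.

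Polycomb group genes encode the complexes that keep developmental genes silent. Of 20 tested, 5 rose and 1 fell in Q140 x Msh3-/-, with a median of 0.015, beside 6.28% of all genes called. Cbx8, a subunit that reads the repressive mark, ran from 5.24 to 8.07 CPM in wild type (median 6.56), from 7.66 to 11.6 in Q140 x Msh3-/- (median 9.13) and from 12.9 to 17.96 in Q140 (median 15.3). The lowest Q140 x Msh3-/- mice overlapped the highest wild-type mice, and all of them lay below every Q140 mouse. Cbx8 had a log2 fold change of 0.50 ± 0.0936 (adjusted p = 0.000208) beside 1.18 in Q140. Sfmbt2, another Polycomb protein, had medians of 2.68, 4.07 and 13.9 CPM in wild type, Q140 x Msh3-/- and Q140 (log2 fold change 0.53 ± 0.142, adjusted p = 0.0131, beside 2.34 in Q140). Rnf2 (0.13) and Bmi1 (0.12) rose by less. The fall of Cbx7 (-0.10) was lost with library totals as the scale, and 3 in place of 5 genes rose in several alternatives.

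Developmental transcription factors outside striatal identity rose in Q140 in 4 of 10 tested, beside 33.0% of all genes called there in either direction. None of the 10 passed in edgeR in Q140 x Msh3-/-, beside 6.28% of all genes. There, 3 of the 10 had an unadjusted p below 0.05 and DESeq2 called 1 higher. Onecut1, a homeodomain factor, had 7 counts over the 8 wild-type libraries, 24 over the 8 Q140 x Msh3-/- libraries and 1180 over the 8 Q140 libraries. Wt1, a zinc-finger factor, ran from 0.0204 to 0.143 CPM in wild type, from 0 to 0.572 in Q140 x Msh3-/- and from 1.31 to 8.75 in Q140. The log2 fold change of Wt1 in Q140 x Msh3-/- was 1.96 (adjusted p = 0.0796), beside 6.29 in Q140. Clustered protocadherins, neuronal adhesion proteins that mark single cells, rose in 10 of 57 genes and fell in none (median 0.098), beside 6.28% of all genes called. In Q140, 30 of the 57 were higher and 7 lower, beside 33.0% of all genes called. Pcdhb13 ran from 8.92 to 14.5 CPM in wild type and from 14.2 to 19.0 in Q140 x Msh3-/- and had a log2 fold change of 0.51 ± 0.0769. The clustered protocadherins are neighbouring genes of related sequence, so some of their counts could have been split between genes.

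Of the 74 named genes that passed the test and have a promoter in the RefSeq table (GRCm38.p6), 4 hold the full cAMP response element TGACGTCA in the 250 bases before their RefSeq start site. The upstream sequences of 3 of them, Flt1, Gpr6 and Sstr2, are shown because cAMP signalling genes were among those that fell and this element is the textbook site of the cAMP-responsive factor CREB. The element reads the same on both strands, and its 8 letters are in capitals in each line. Each of these windows lies upstream of the annotated gene and is written 5′ to 3′ on the gene's strand. The fourth gene, Cbx8, is not shown, since the end of its window lies inside the gene by the annotation used for the coordinates given here. The windows are chr5:147726012-147726261 (minus strand) for Flt1, chr10:41072291-41072540 (minus strand) for Gpr6 and chr11:113619077-113619326 (plus strand) for Sstr2.
Flt1: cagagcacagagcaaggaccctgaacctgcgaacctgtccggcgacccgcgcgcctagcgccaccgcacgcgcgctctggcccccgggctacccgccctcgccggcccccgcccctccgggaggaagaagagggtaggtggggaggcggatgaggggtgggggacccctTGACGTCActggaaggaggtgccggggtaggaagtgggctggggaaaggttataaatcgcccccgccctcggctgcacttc
Gpr6: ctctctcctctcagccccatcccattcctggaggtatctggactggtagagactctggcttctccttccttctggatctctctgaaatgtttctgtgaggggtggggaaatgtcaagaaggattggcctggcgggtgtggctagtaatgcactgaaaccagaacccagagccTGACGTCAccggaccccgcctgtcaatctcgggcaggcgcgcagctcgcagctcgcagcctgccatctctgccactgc
Sstr2: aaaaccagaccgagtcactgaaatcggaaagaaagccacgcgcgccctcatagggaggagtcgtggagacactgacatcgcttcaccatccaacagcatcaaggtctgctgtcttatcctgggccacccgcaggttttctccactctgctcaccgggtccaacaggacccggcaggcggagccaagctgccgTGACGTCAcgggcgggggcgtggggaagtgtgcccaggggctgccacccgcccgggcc
Between the last base of the element and the RefSeq start site lie 73 bases in Flt1, 70 in Gpr6 and 50 in Sstr2. It occurs in 372 of 18788 promoters of the RefSeq table (1.98%). The 74 are part of 106 named genes that passed the test, so the share among them is not compared with that of all promoters. A match is a description of the letters, and Gpr6 and Flt1 fell while Sstr2 rose.

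Myelin genes were lower in both Q140 groups. Of 12 oligodendrocyte markers, 5 fell in Q140 x Msh3-/- and 6 in Q140, with medians of -0.15 and -0.17. Over all genes tested, 6.28% were called in Q140 x Msh3-/- and 33.0% in Q140. Mal, a membrane protein of the myelin sheath, ran from 205 to 265 CPM in wild type (median 230), from 170 to 205 in Q140 x Msh3-/- (median 182) and from 166 to 216 in Q140 (median 181). The wild-type and Q140 x Msh3-/- ranges met at their edges, and the ranges of both Q140 groups overlapped. Its log2 fold change was -0.32 ± 0.0625 (adjusted p = 0.000468), beside -0.31 in Q140. Cldn11 and Mobp, also proteins of the myelin sheath, had log2 fold changes of -0.26 and -0.27, beside -0.27 and -0.36 in Q140. The difference between both Q140 groups was -0.01 ± 0.0625 for Mal and 0.00 ± 0.0548 for Cldn11. The summed level of the 12 markers ran from 5776 to 6929 CPM in wild type and from 5393 to 6375 in Q140 x Msh3-/-, and the ranges overlapped.

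Markers of the other cell types passed in smaller numbers, beside 6.28% of all genes tested. No marker of microglia passed among 12 in edgeR, where 1 had an unadjusted p below 0.05, nor did any in DESeq2, and the median was -0.07. Csf1r, a growth factor receptor of microglia, had overlapping ranges, from 102 to 130 CPM in wild type and from 93.7 to 119 in Q140 x Msh3-/-. Of 12 astrocyte markers, 1 fell, the glutamate transporter Slc1a2 (-0.17). Among 12 interneuron markers, Nos1, the neuronal nitric oxide synthase, fell by 0.16, and Chat, the enzyme that makes acetylcholine, fell by 0.15 with an adjusted p of 0.0456 that was lost in 18 of 31 alternatives with no minimum fold. Of 12 endothelial and mural markers, 3 fell, and 1 to 4 fell over the alternatives with no minimum fold. All 12 had a log2 fold change below 0 (median -0.14), and their summed level ran from 476 to 547 CPM in wild type and from 406 to 474 in Q140 x Msh3-/-, with no overlap. Flt1, a receptor for vascular endothelial growth factor, ran from 79.6 to 112 CPM in wild type (median 92.0) and from 27.8 to 82.1 in Q140 x Msh3-/- (median 59.7), with ranges that overlapped at their edges. Its log2 fold change was -0.62 ± 0.149 (adjusted p = 0.00528), and it did not pass when only both genotypes were fitted (adjusted p = 0.079).

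Several groups held no gene past the threshold in edgeR. They were 14 mismatch repair genes other than Msh3, 19 cholesterol synthesis genes, 12 p53 targets, 14 interferon response genes, 12 genes for huntingtin and its binding partners, 78 cytosolic ribosomal protein genes and 16 immediate early genes. At an unadjusted p below 0.05 these groups held, in that order, 2, 4, 4, 2, 3, 3 and 2 genes, and DESeq2 called 1 p53 target higher and 1 huntingtin partner lower. Over all 19714 genes tested in edgeR, 6.28% passed and 3726 had an unadjusted p below 0.05. At such shares a group of 12 to 19 genes without a call does not stand apart from all genes. The 78 ribosomal protein genes form a larger group, and their 3 genes at an unadjusted p below 0.05 were not tested against all genes. The medians of these groups ran from -0.07 to 0.06, apart from the immediate early genes at 0.27. Fos, an activity-induced transcription factor, ran from 3.15 to 22.9 CPM in wild type and from 5.86 to 24.5 in Q140 x Msh3-/-. Of 82 respiratory chain genes, 1 rose, and 11 rose with library totals as the scale, where 1364 of all 19714 genes rose. The inducible chaperone Hspa1a rose by 0.81 from 1.01 to 1.99 CPM in wild type to 1.23 to 4.47 in Q140 x Msh3-/-, with overlapping ranges. The immunoproteasome subunit Psmb10 rose by 0.38.

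Several genes close to Msh3 changed. Of 59 genes tested within 5 Mb of Msh3, 15 (25.4%) passed, with 4 higher and 11 lower, beside 6.28% of all genes. Msh3-/- mice without Q140 differed from wild type in 7 of the same 59, beside 9 of all genes tested (0.0457%). Msh3 itself is not counted among the 7 but is among the 9. Rasgrf2, an exchange factor for Ras that lies 0.08 Mb from Msh3, ran from 47.5 to 68.5 CPM in wild type (median 59.2), from 24.4 to 32.4 in Q140 x Msh3-/- (median 28.3) and from 12.6 to 29.4 in Msh3-/- alone (median 24.1). Both groups that lacked Msh3 lay below every wild-type mouse, and Q140 alone ran from 35.5 to 52.3. Rasgrf2 had a log2 fold change of -1.05 in Q140 x Msh3-/- (adjusted p = 1.65e-07) and -1.31 in Msh3-/-.

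Cmya5, a muscle and brain protein that binds the cytoskeleton, ran from 15.7 to 17.9 CPM in wild type, from 6.63 to 9.41 in Q140 x Msh3-/- and from 7.46 to 9.43 in Msh3-/- alone. Its log2 fold changes were -1.03 and -0.96 in these 2 groups, and the groups lay apart from wild type. F2r, a thrombin receptor, went the other way, from 3.06 to 4.26 CPM in wild type to 4.32 to 7.22 in Q140 x Msh3-/- (log2 fold change 0.72 ± 0.0975), and from 6.00 to 8.00 in Msh3-/- alone (0.89). Sv2c, a synaptic vesicle protein, had medians of 500 CPM in wild type, 387 in Q140 x Msh3-/- and 413 in Msh3-/- alone (log2 fold changes -0.35 and -0.27). Ankrd34b and Col4a3bp fell by 0.30 and 0.18 in Q140 x Msh3-/-, with -0.34 and -0.20 in Msh3-/-. Homer1, a scaffold of glutamate synapses, lies in the same window and fell by 0.43, but its value in Msh3-/- was -0.11 (adjusted p = 0.87) and its value in Q140 was -0.66. Loss of Msh3 and the chromosome 13 segment around its targeted allele go together in these mice, so they cannot be told apart.

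Genes within 5 Mb of Htt passed at 14.0%, as 10 of 150 rose and 11 fell, beside 6.28% of all genes. By distance, 18.9% passed within 1 Mb, 7.14% at 1 to 2 Mb and 14.1% at 2 to 5 Mb. Dpysl5, a protein of growing axons, ran from 42.3 to 50.1 CPM in wild type (median 47.2), from 56.5 to 65.8 in Q140 x Msh3-/- (median 58.5) and from 55.1 to 61.3 in Q140 (median 56.6). Both Q140 groups were above wild type and overlapped, and the log2 fold changes were 0.35 ± 0.0347 (adjusted p = 2.11e-10) and 0.29. Abhd1, an alpha/beta hydrolase, ran from 3.81 to 4.61 CPM in wild type and from 6.31 to 8.78 in Q140 x Msh3-/- (log2 fold change 0.85), with 0.80 in Q140. Atraid, a receptor linked to retinoic acid, fell by 0.30 in Q140 x Msh3-/- and had -0.31 in Q140. The difference between both Q140 groups was 0.06 ± 0.0345 for Dpysl5, 0.06 ± 0.0817 for Abhd1 and 0.01 ± 0.0334 for Atraid, and none passed. Gm2420, a predicted gene, had 14 counts over the 8 wild-type libraries, 250 in Q140 x Msh3-/-, 366 in Q140 and 366 in Q140 x Msh3+/-, but 4 in Msh3-/- and 1 in Msh3+/-. All 3 groups with the Q140 allele had it and the 3 without it had few counts. The Q140 allele and the chromosome 5 segment around it go together in these mice, so they cannot be told apart. Without the genes in both windows, 1190 genes passed.

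**Figure D4:**
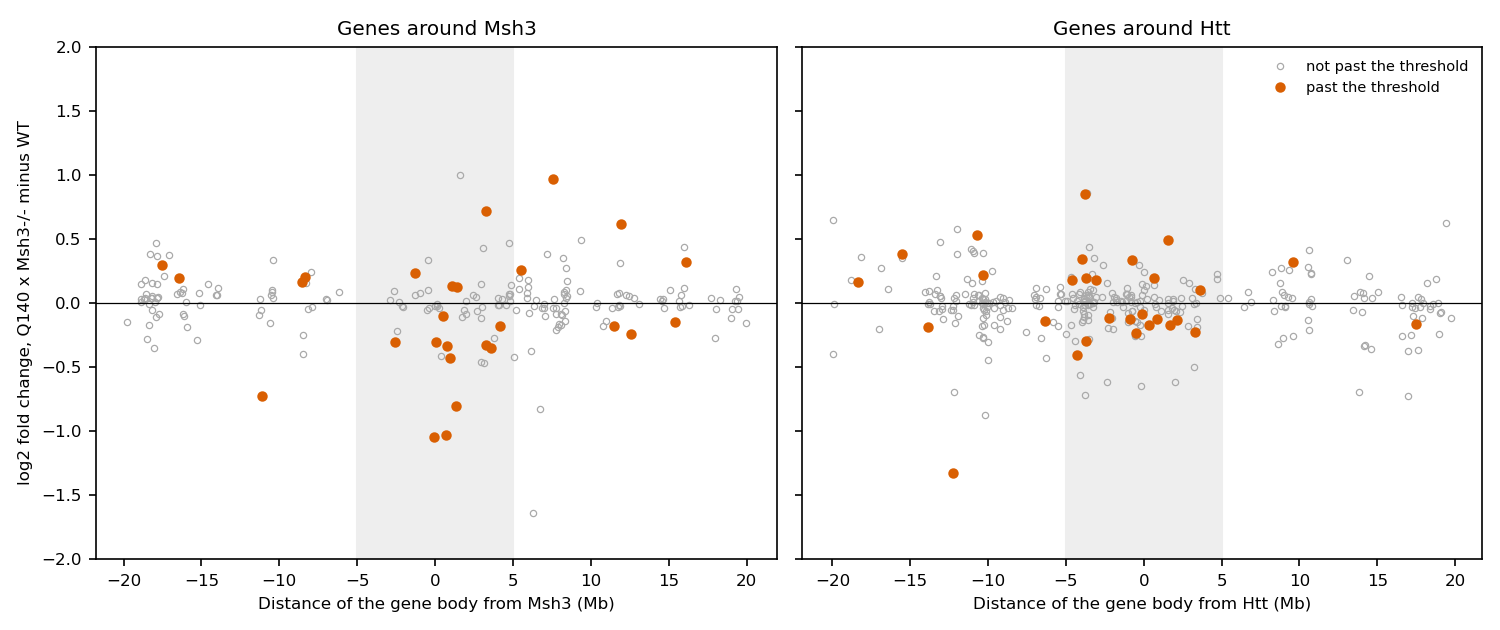
Log2 fold change in Q140 x Msh3-/- against wild type by the distance of each gene from Msh3 (left) and Htt (right) in Mb, with genes that passed filled and the 5 Mb windows shaded. Within 1 Mb of Msh3 6 of 17 genes passed, all lower; 1 gene that passed near Htt, Gm2420, lies beyond the axis, and both targeted genes are left out.

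The same genes were measured in mice outside this comparison: Q140 x Msh3+/- against Msh3+/-, 8 mice each, which share only the estimate of the spread and the sex term. In those mice 4247 genes (21.5%) passed, 2120 higher and 2127 lower, or 4507 higher and 1351 lower with library totals as the scale. Of the 1239 genes called in Q140 x Msh3-/- against wild type, 1028 (83.0%) were called in the same direction there, which is 24.2% of the 4247. Over all 19714 genes, 3952 were called in the other mice with the same sign as here. The sign was shared by 98.1% of the 1239 genes and by 69.1% of all genes. Across the 13905 genes whose mean log2 CPM was 1 or more, the fold changes correlated with r = 0.692, over genes that are not independent of each other.

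Some fold changes were smaller in Q140 x Msh3-/- against wild type than in the other mice. Penk had a log2 fold change of -0.58 here and -1.02 in the other mice, Ryr1 had -0.82 and -1.23, and Cbx8 had 0.50 and 0.92. Nts, with 1.04 and 1.18, and Cldn11, with -0.26 and -0.23, were closer. These differences in size were not tested. Of 16 genes called around Msh3, Msh3 included, 7 were called with the same sign in the other mice, against 20 of 21 around Htt. Rasgrf2 had -0.07 in the other mice (adjusted p = 0.772). AW495222, a noncoding gene near Msh3, was the 1 gene called in opposite directions, with -0.80 ± 0.143 here (adjusted p = 9.04e-05) and 0.61 ± 0.14 there (adjusted p = 0.000696). Its value in Msh3-/- alone was -1.17.

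**Figure D5:**
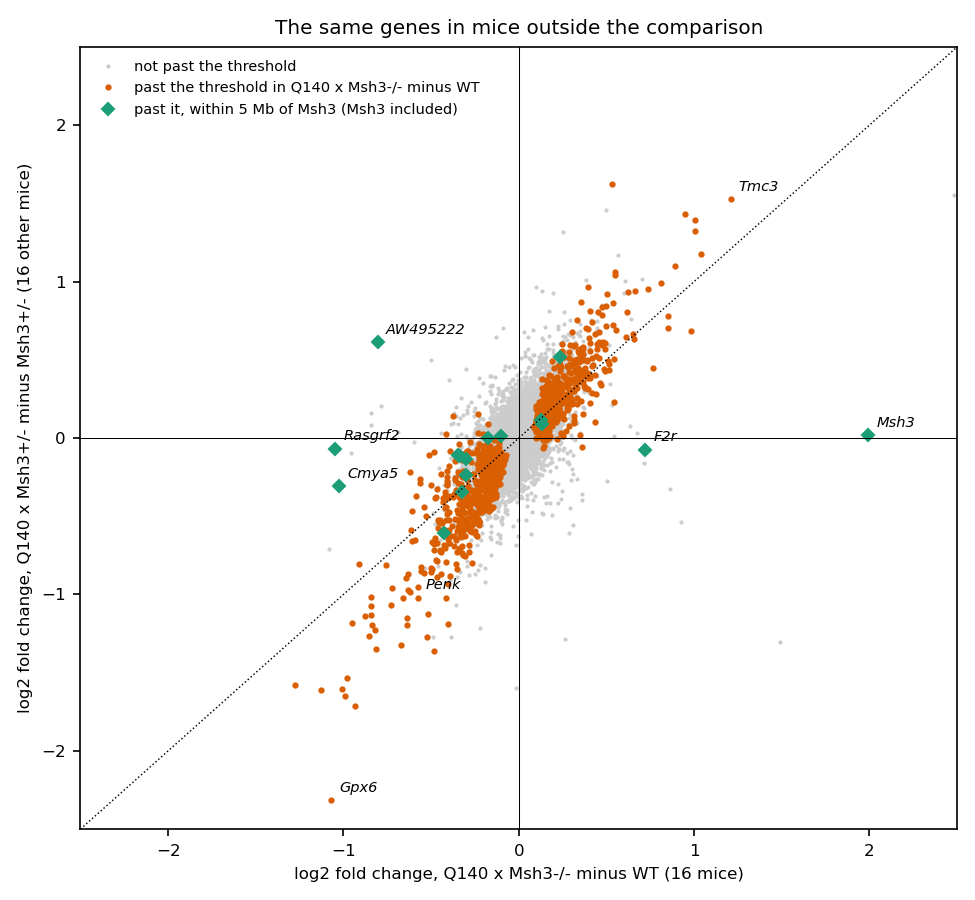
Log2 fold changes of 13905 genes in Q140 x Msh3-/- against wild type (horizontal) and in Q140 x Msh3+/- against Msh3+/- (vertical), with genes called in the former in colour and those within 5 Mb of Msh3 as diamonds; the dotted line marks equal values and 2 genes lie outside the axes. Most called genes lie in the quadrants of shared sign, whereas Rasgrf2, Cmya5 and Msh3 lie apart from the line.

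Male and female mice were compared by fitting every combination of genotype and sex separately. Males alone gave 441 genes and females alone 249, each with 4 mice per genotype. No gene's difference between Q140 x Msh3-/- and wild type itself differed between the sexes in edgeR (0.0% of the genes tested), where 707 genes had an unadjusted p below 0.05, and DESeq2 gave 0 as well. Penk had a log2 fold change of -0.68 in males and -0.48 in females, and Nts had 1.30 and 0.79.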

How the data were processed

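Striatal RNA of 48 mice was sequenced from TruSeq stranded libraries after Qiagen RNeasy extraction, per the labels' protocols. The authors deposited 1 table of read counts per gene and 1 of FPKM values for all libraries. STAR 2.7.5c, SAMtools 1.10, HTSeq 0.12.3 and GRCm38 are named in the submitters' processing notes. Which annotation was counted, and whether by strand, is not given in the sources used here. No column belonged to a sample outside the series, and 27 gene symbols turned into dates were restored by gene ID. Coordinates came from the GRCm38 annotation for 48435 of 48795 IDs.

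edgeR 4.0.16 (R 4.3.3) served as the main test of the deposited counts (TMM, filterByExpr by genotype with a minimum count of 10, robust quasi-likelihood fit over all 48 libraries with genotype and sex, 41 residual degrees of freedom). This kept 19714 genes and left out 29081; p-values were Benjamini-Hochberg adjusted over all genes kept, with a threshold of 0.05. TMM assumes that most genes do not change, so fold changes are relative to the bulk of genes. CPM are counts scaled to a common library total with TMM factors. With 38.9 M to 60.9 M counts per library, counting error is small except for genes of a few counts, and it does not cover variation between mice. Technical measures were compared by 2-sided exact permutation tests. The labels do not say whether the replicate numbers within sex pair mice across genotypes, and the main fit did not pair them. The fit was tested on simulated data. DESeq2 1.42.0, and limma 3.58.1 on the deposited FPKM (log2 with a pseudocount of 0.1), were alternatives, with other scalings, filters and terms and each mouse left out in turn.

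The genes named are Msh3 and Htt, the 12 highest rises and 12 greatest falls past the threshold among genes whose mean log2 CPM was 1 or more, up to 4 members per list with the smallest p, and the genes past the threshold within 5 Mb of Msh3 or Htt. Further list members are named as values, and a few genes that the rule names are not reported here. Members, lists and rules were chosen with earlier results of these data known. Genes of few counts named by their counts, and Cartpt, Tac1, Pdyn, Gng7, Gnal, Bcl11b, Fos, Onecut1 and Wt1, were chosen after their values were seen.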

Additional observations from a re-analysis of the deposited data

Results flagged for a closer look

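In 9 of 264 groups of 8 mice, 1 mouse stood apart from the other 7 by more than the 95% limit of Dixon's test; chance gives about 1 in 20. Q140 x Msh3-/- male replicate 1 was the high mouse for Dsg1c (8.90 CPM, others 2.23 to 4.48) and Mrpl33, a mitochondrial ribosomal protein gene (16.3 CPM, others 12.9 to 14.5). This mouse was also 1 of 4 libraries that stood apart on the first component of the residuals. Without this mouse Dsg1c no longer passed the test. Among the other Q140 x Msh3-/- mice, female replicate 4 was low for Plk5 (12.5 CPM, others 16.4 to 19.0), female replicate 3 was low for Stat2 (24.6 CPM, others 27.3 to 28.6), female replicate 1 was high for Gm2420 (1.22 CPM, others 0.423 to 0.762) and male replicate 3 was high for Gm42847 (4.95 CPM, others 2.82 to 3.78).

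In wild type, male replicate 1 was low for Drd2 (273 CPM, others 295 to 309), male replicate 4 was high for Grin1 (780 CPM, others 707 to 739) and female replicate 1 was high for haemoglobin transcripts (1.85 CPM, others 0.0164 to 0.481).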

How the results depend on the processing

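Over 31 alternatives, the minimum fold not counted, none of the 106 named genes that passed the test changed direction, and 82 of them passed in all of those run for them; 5 lost the call in 1 or 2 and 19 in 3 or more. The 1239 genes became 1870 with limma on log2 FPKM (1383 higher) and 57 against a minimum fold of 1.2 (22 higher, 35 lower), where fewer genes pass by construction. Library totals as the scale gave 1364 higher. In Q140 x Msh3+/- against Msh3+/-, library totals gave 4507 higher and 1351 lower and limma gave 4535 and 1347, from 2120 and 2127. Neither of these 2 alternatives applied TMM factors, and the cause was not tested. Leaving out 1 mouse in turn gave 984 to 1280 genes (448 to 601 higher, 536 to 681 lower), with 984 without Q140 x Msh3-/- female replicate 4. DESeq2 gave 1496 genes, the fit of only both genotypes 1136, no low-count filter 1018, the stricter filter 1369, the plate column as a term 1125, and leaving out the 4 libraries with other name prefixes (2 wild type and 2 Q140) 1053. With the replicate number as a replicate block, 1244 genes passed (572 higher, 672 lower). The residuals of same-numbered wild-type and Q140 x Msh3-/- mice correlated at -0.07 to 0.05, which cannot show whether such mice shared a litter. Without the 4 libraries apart on the residual component, 1225 genes passed.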

Other observations

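The X chromosome held more genes that rose than fell in Q140 x Msh3-/- against wild type: of 689 tested, 57 rose and 13 fell (10.2% called, beside 6.28% of all genes). Over the 31 alternatives with no minimum fold, 48 to 92 rose and 9 to 17 fell; against a minimum fold of 1.2, 0 rose and 2 fell. On chromosome 13, 30 of 678 genes rose and 38 fell. Among the X-linked genes, Htr2c, a serotonin receptor, rose by 0.50 and Syp, the synaptic vesicle protein synaptophysin, by 0.26, each with all 8 mice above wild type; these genes were chosen after their values were seen. Phex, among the greatest falls, is also X-linked. The skew was not particular to this comparison. In Q140 x Msh3+/- against Msh3+/-, 144 X-linked genes rose and 50 fell, beside 21.5% of all genes called.

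The genes that changed were longer and more often protein coding than all genes tested. Their median span was 27.2 kb for those that rose and 31.8 kb for those that fell, against 17.6 kb over all, and 94.4% and 91.1% were protein coding against 77.0%. Both sets also had more RNA than all genes tested. The median of the mean log2 CPM was 6.01 for the genes that fell, 4.69 for those that rose and 3.45 over all. Genes with more counts pass the test more easily, and the part of this in length and gene type was not tested.

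Pituitary hormone transcripts varied from library to library. Prl, which encodes prolactin, had 2087 counts over the 8 wild-type libraries, 1326 of them in 1 library, and 27 over the 8 Q140 x Msh3-/- libraries. Gh, which encodes growth hormone, had 507 and 14. Prl summed to 1155 counts in Msh3+/-, 452 in Msh3-/-, 345 in Q140 x Msh3+/- and 160 in Q140. Single libraries held 596, 441, 296 and 148 of these counts. In the same order of groups, Gh summed to 592, 131, 72 and 141 counts.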
